A study of Arabidopsis thaliana with 21 samples.

Results

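The genes that remove free auxin by conjugation (GH3) and by oxidation (DAO) were followed in root tips of Arabidopsis thaliana. The loci were listed by name: GH3.1 (AT2G14960), GH3.2 (AT4G37390), GH3.3 (AT2G23170), GH3.4 (AT1G59500), GH3.5 (AT4G27260), GH3.6 (AT5G54510), GH3.9 (AT2G47750), GH3.17 (AT1G28130), DAO1 (AT1G14130) and DAO2 (AT1G14120). They are 10 of 27586 measured loci, and 8 of them passed the filter on low counts, as did 19809 loci in all. GH3.4 and GH3.9 did not pass. The RefSeq gene table gives GH3.2, GH3.5 and GH3.6 as BRU6, WES1 and DFL1, and it gives DAO1 and DAO2 by locus tag alone.

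The 21 RNA libraries formed 7 groups of 3 biological replicates, each library made from 50 root tips, 1 to 2 mm long, of plants grown for 5 days. In the first experiment Col-0, a standard wild-type accession, received 10 nM IAA (the natural auxin), 10 µM PEO-IAA (an auxin antagonist that occupies the auxin receptor) or mock (ethanol), each for 20 min. In the second, HS:AXR3-1 plants and Col-0 both received a heat shock of 37 °C for 40 min, followed by 80 min of recovery. In the third, XVE:AXR3-1-RFP plants and Col-0 both received 5 µM estradiol (EST) for 2 h. Both lines carry AXR3-1, a stabilised form of the auxin coreceptor and repressor AXR3/IAA17, in the Col-0 background. HS places it behind a heat shock promoter, and XVE is the estradiol-responsive system, here driven by the g1090 promoter. The sample labels call the tag RFP, whereas the design text calls it mCherry. Neither line was sampled without induction, so a difference present before induction and one caused by induced AXR3-1 cannot be told apart.

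GH3 enzymes of this group join IAA to amino acids, which stores it or marks it for breakdown. DAO enzymes are dioxygenases that oxidise IAA to an inactive product. Many GH3 genes are also early targets of auxin signalling: auxin causes AUX/IAA repressors such as AXR3 to be degraded, auxin response factors then act on promoters carrying elements such as TGTCTC, and the conjugating enzymes that follow lower the auxin level. The comparisons therefore ask how these genes respond to added auxin, to an antagonist, and to a repressor that auxin cannot remove.

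GH3.1, GH3.2, GH3.3 and GH3.5 lay above mock in every IAA library, as did GH3.6, whose window is not printed here. GH3.17 was the most abundant member with mock, and its IAA and mock libraries overlapped. The 300 bases before the annotated gene start of GH3.1, GH3.2, GH3.3, GH3.5 and GH3.17 are printed below. These 5 windows run 5′ to 3′ on the gene's strand and come from RefSeq assembly TAIR10.1. They were read from chr4:17579318-17579617 (plus strand) for GH3.2, chr2:9866563-9866862 (minus) for GH3.3, chr4:13653279-13653578 (plus) for GH3.5, chr2:6453798-6454097 (minus) for GH3.1 and chr1:9824869-9825168 (plus) for GH3.17. None of these 5 windows overlaps another annotated gene. Capitals mark TGTCTC.
GH3.2: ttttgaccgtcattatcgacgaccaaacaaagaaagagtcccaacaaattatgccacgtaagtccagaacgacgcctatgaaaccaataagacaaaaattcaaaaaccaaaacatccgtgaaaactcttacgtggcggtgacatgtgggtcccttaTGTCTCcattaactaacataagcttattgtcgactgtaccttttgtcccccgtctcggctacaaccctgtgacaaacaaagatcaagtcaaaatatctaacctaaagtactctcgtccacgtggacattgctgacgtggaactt
GH3.3: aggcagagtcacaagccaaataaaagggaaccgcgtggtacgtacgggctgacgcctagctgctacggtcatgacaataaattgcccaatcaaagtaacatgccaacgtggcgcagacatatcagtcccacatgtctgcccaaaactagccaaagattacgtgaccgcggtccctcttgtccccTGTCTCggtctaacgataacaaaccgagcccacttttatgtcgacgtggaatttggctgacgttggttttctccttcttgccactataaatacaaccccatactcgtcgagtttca
GH3.5: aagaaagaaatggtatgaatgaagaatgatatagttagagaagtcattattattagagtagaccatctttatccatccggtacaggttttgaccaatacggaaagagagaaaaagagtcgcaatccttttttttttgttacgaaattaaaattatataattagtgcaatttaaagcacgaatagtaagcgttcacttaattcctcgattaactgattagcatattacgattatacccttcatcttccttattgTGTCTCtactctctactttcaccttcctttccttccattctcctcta
GH3.1: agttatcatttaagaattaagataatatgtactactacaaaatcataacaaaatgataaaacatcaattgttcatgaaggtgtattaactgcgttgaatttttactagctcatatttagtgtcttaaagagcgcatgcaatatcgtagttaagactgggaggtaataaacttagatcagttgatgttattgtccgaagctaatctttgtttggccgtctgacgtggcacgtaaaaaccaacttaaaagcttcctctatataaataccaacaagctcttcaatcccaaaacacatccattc
GH3.17: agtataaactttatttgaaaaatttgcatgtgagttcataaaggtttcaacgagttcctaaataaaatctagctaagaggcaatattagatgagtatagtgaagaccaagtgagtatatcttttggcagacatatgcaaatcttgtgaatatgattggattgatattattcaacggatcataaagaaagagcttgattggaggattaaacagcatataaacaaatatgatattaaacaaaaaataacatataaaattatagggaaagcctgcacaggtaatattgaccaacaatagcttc

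TGTCTC was searched on both strands (its reverse complement is GAGACA), and so was the variant TGTCGG (reverse complement CCGACA). Both motifs share their first letters but cannot match the same bases. The motif TGTCTC occurred once each upstream of GH3.2, 144 to 139 bases before the start, GH3.3, 116 to 111 bases before it, and GH3.5, 47 to 42 bases before it. It was in none of the other 7 windows, GH3.1, GH3.6 and GH3.17 among them, and TGTCGG was in none of the 10. Of 27443 windows of the same length, 13% held TGTCTC and 4.91% held TGTCGG. A match describes these letters only.

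Libraries held 17.4 to 23.9 M estimated reads. All 8 root tip markers examined were detected: the mean over libraries ran from 1.39 TPM for WOX5, the quiescent centre gene, to 80.9 TPM for the epidermal gene WER. Together, 6 photosynthesis genes gave 6.84 to 21.4 TPM. AXR3, whose reads cannot be divided here between the native gene and the transgene, had 582, 802 and 1024 TPM in the XVE:AXR3-1-RFP libraries and 135, 131 and 127 TPM in estradiol-treated Col-0 (log2 change 2.61, edgeR adjusted p = 9.71e-04). In HS:AXR3-1 it had 144, 262 and 752 TPM, against 84.1, 116 and 129 TPM in heated Col-0 (log2 change 1.80, edgeR adjusted p = 0.199). The library labelled HS:AXR3-1 replicate 1 went against its label: 6 heat shock genes summed to 147 TPM there, against 4387 and 10130 TPM in the other HS:AXR3-1 libraries and 5470 to 7082 TPM in heated Col-0. Unheated libraries had 6.97 to 51.6 TPM. The log2 changes of the tested members in this line against heated Col-0 are therefore given with and without that library. Other values of this line, the AXR3 change, levels, shares and ranges among them, include it unless stated. That library also enters the spread shared by all groups in the main fit, so it bears on the p-values of the other comparisons. Those were not refitted without that library alone, but fits of the chemical or estradiol experiment alone do not hold it.

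Levels of different genes are compared in TPM, the deposited transcript abundance scaled to length and to the library total. Fold changes come from reads per locus, scaled to CPM (counts scaled to the library total), fitted with edgeR's quasi-likelihood test over all libraries, with Benjamini-Hochberg adjustment over all 19809 loci and a call at an adjusted p under 0.05. The p-values measure the spread between these replicate libraries. How many of all genes separate without overlap between groups was not counted, so a lack of overlap is a description only. In whole root tips, fewer cells of a type and less RNA per cell cannot be told apart.

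In mock-treated root tips the summed level of the listed genes was 48.8 ± 17.9 TPM (SD, n = 3). GH3.17, an enzyme that prefers glutamate as the amino acid joined to IAA, contributed most, 34.2% of the sum, and DAO1 followed with 17.8%. With IAA the sum was 144 ± 64.5 TPM (SD, n = 3) and the order differed: GH3.2 alone made up 37%, against 15.1% with mock and 2.92% with PEO-IAA. In estradiol-treated XVE:AXR3-1-RFP root tips the sum was 25.4 ± 11.8 TPM and in Col-0 with estradiol 44.7 ± 11.7 TPM (SD, n = 3 each), and DAO1 led with 32% in the line, against 21.4% in Col-0. GH3.17 led in both heated groups, with 51.4% in HS:AXR3-1 and 55% in Col-0. These sums are descriptions over a chosen list and were not tested.

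**Figure D1:**
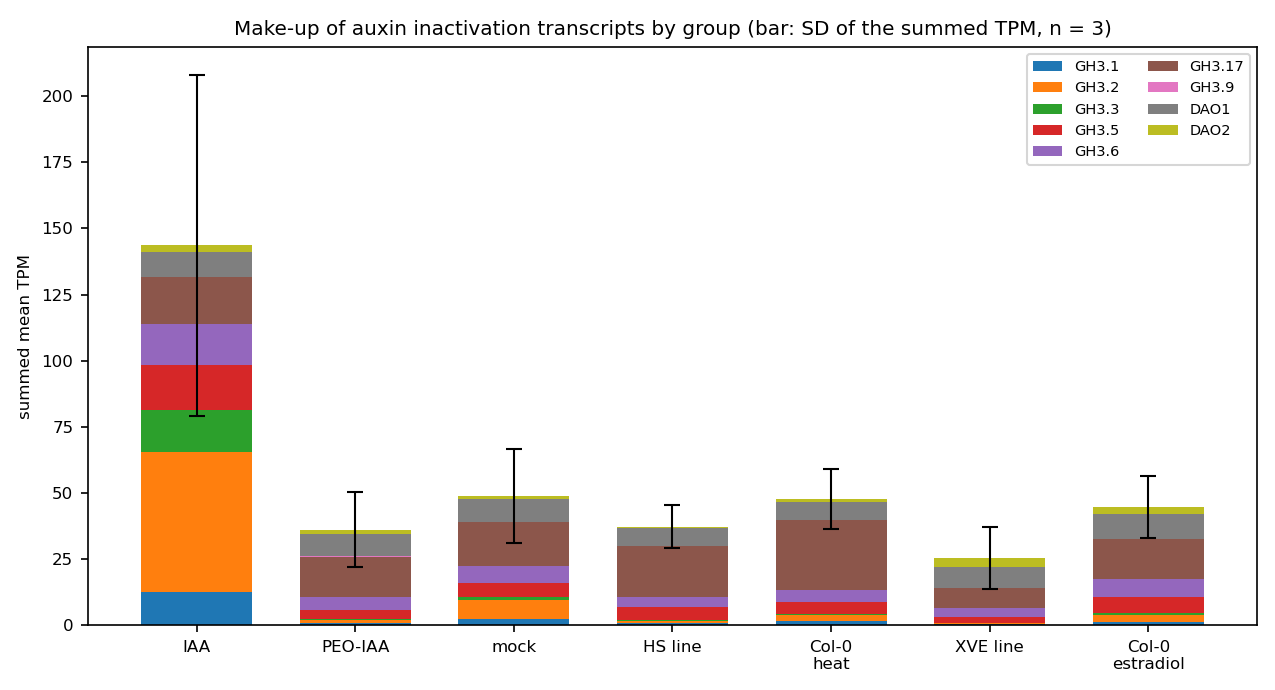
Summed mean TPM of the auxin inactivation genes in each of the 7 groups, stacked by gene, with the SD of the sum over 3 libraries as the black bar (GH3.4, at 0 throughout, is not drawn). The IAA column reaches 144 TPM and is mostly GH3.2 and the other GH3 genes, whereas the XVE line column is the lowest at 25.4 TPM.

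After 20 min of IAA, GH3.1 and GH3.5 rose relative to mock, and GH3.17 and DAO1 showed almost no difference. GH3.2, GH3.3 and GH3.6 lay above mock in every library without passing the test over all genes, which had no replicate term. With replicate number as a block, GH3.2 and GH3.3 passed (edgeR adjusted p = 0.0175 and 4.43e-04). Without the block, 2 of the 8 tested members were called higher and 0 lower, against 0.146% of all tested genes called higher and 0.0202% called lower. GH3.1, GH3.2, GH3.3, GH3.5 and GH3.6 had an unadjusted edgeR p under 0.05 and no overlap between IAA and mock libraries. Such a p was found for 672 of all 19809 tested genes. The median log2 change of the 8 members was 1.46, beside 0.00 for all tested genes.

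GH3.1, an IAA-amido synthetase, had 11.1, 13.4 and 12.9 TPM with IAA, against 0.885, 2.75 and 2.69 TPM with mock. All 3 IAA libraries stood far above all 3 mock libraries, on 520 to 681 estimated reads per IAA library. The change was 5.70-fold (log2 2.51, SE 0.33, edgeR adjusted p = 0.00308), and by p this gene ranked 3 of 19809. With the chemical experiment fitted alone the same change missed the threshold (log2 2.52, edgeR adjusted p = 0.0664).

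GH3.5, which can conjugate salicylic acid as well as IAA, had 15.3, 20.5 and 15.3 TPM with IAA, against 4.73, 5.29 and 6.03 TPM with mock. These groups did not overlap, and the libraries within each were close together. The change was 2.98-fold (log2 1.58, SE 0.27, edgeR adjusted p = 0.0201), but leaving out any 1 of the 6 libraries ended the call, with adjusted p between 0.0537 and 0.178 and a log2 change between 1.45 and 1.68.

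GH3.2, also known as BRU6, reached the highest level of all members, with 20.6, 83.4 and 55.5 TPM under IAA, against 3.25, 10.2 and 8.67 TPM under mock. Replicate 1 was the lowest library in both groups, so that the spread within a group was wide while the ratio between libraries of the same replicate number was 5.47, 8.18 and 6.24. Same-numbered libraries of this experiment deviated together over all genes. Without a replicate term the log2 change was 2.80 (SE 0.82, edgeR adjusted p = 0.387), and with replicate number as a block it was 2.72 (SE 0.46, edgeR adjusted p = 0.0175).

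The pattern was similar for GH3.3, a close relative of GH3.2, with 3.08, 34.6 and 9.85 TPM under IAA and 0.227, 2.34 and 0.735 TPM under mock. The IAA libraries were far apart from each other, all above the highest mock library, and the same-numbered ratios were 11.7, 14.7 and 13. The log2 change was 3.81 (SE 0.90, edgeR adjusted p = 0.127), and with the block 3.75 (SE 0.33, edgeR adjusted p = 4.43e-04). DESeq2 without a block gave an adjusted p of 0.0204. With the block, 4 of the 8 members were called higher, where 111 of all tested genes were called higher and 22 lower.

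GH3.6 (DFL1), another IAA-conjugating enzyme, had 9.84, 23.4 and 13.3 TPM with IAA, against 3.18, 8.90 and 7.08 TPM with mock. The same-numbered ratios were 2.61, 2.66 and 1.81, all above 1, and the lowest IAA library was just above the highest mock library. It was not called (log2 change 1.22, SE 0.53, edgeR adjusted p = 1) and the block did not change that (edgeR adjusted p = 0.282).

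GH3.17, the most abundant member with mock, had 15.8, 20.5 and 16.0 TPM with IAA, against 11, 20.0 and 19.0 TPM with mock. The groups overlapped, and the log2 change was -0.01 with a 95% interval of -0.69 to 0.66. For the IAA oxidase DAO1 the values were 5.34, 10.2 and 12.8 TPM with IAA, and 5.02, 12.1 and 8.91 TPM with mock. Its log2 change was 0.07, with an interval of -0.55 to 0.68, so a change of the size seen for GH3.1 or GH3.5 lay outside the interval for both genes. DAO2, a weakly expressed paralog of DAO1, had 0.605, 4.30 and 3.23 TPM with IAA and 0.447, 1.60 and 1.12 TPM with mock, and its interval of -0.95 to 3.63 was too wide to place it with either set.

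Genes that respond to touch and wounding were examined in the same libraries. A list of 12 summed to 737, 747 and 999 TPM with IAA and to 286, 507 and 360 TPM with mock. All 12 had a log2 change above 0 (median 1.37) and 0 of 12 were called. None of the 12 was at 0 in all libraries of either group. Their part in the GH3 result was not tested.

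**Figure D2:**
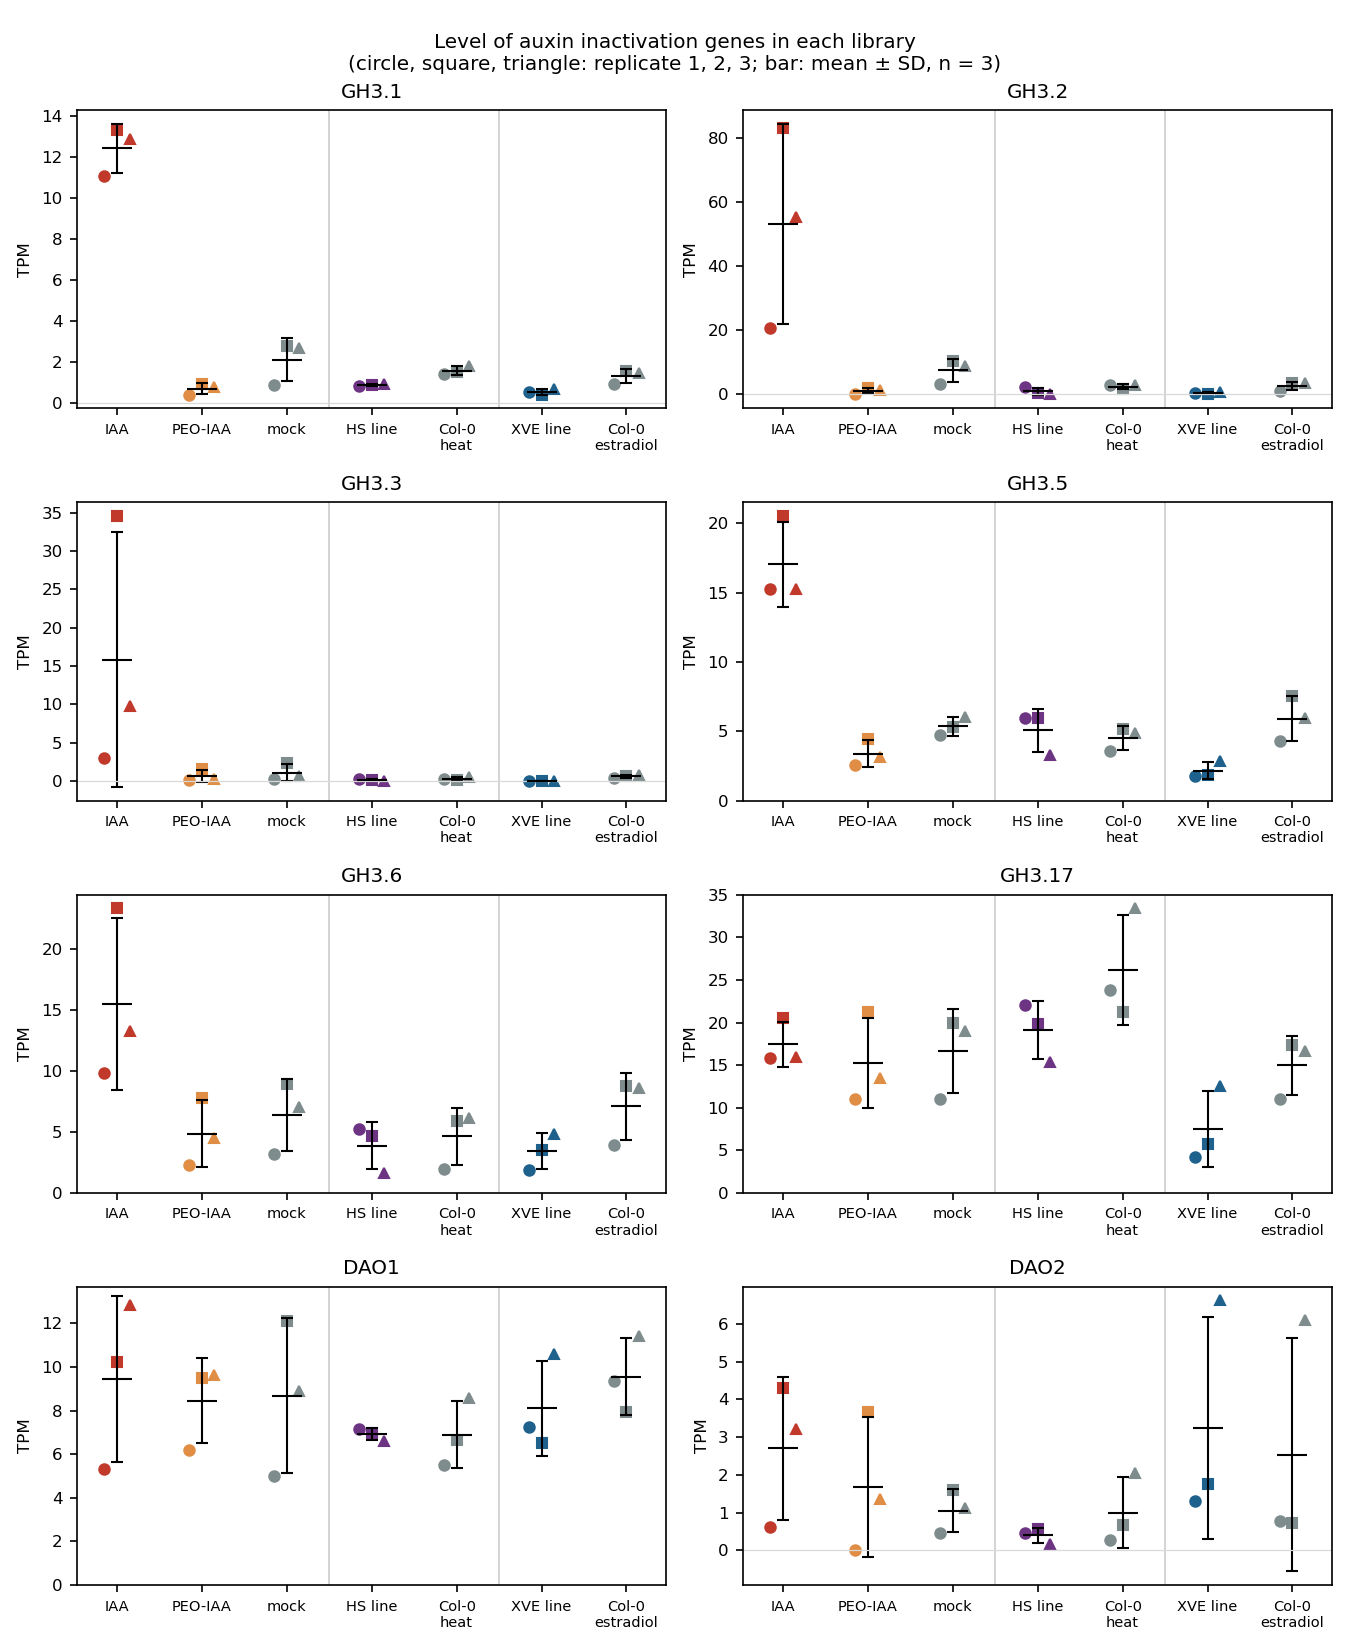
TPM of the 8 tested members in every library, with 1 linear vertical axis per gene, groups along the horizontal axis, symbols for replicate number, and the mean ± SD of 3 libraries as bars. For GH3.1, GH3.2, GH3.3, GH3.5 and GH3.6 the 3 IAA libraries sit above the 3 mock libraries, while those of GH3.17, DAO1 and DAO2 overlap.

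With PEO-IAA, GH3.1, GH3.2 and GH3.5 had a lower CPM in every library than in any mock library, but no member passed the test over all genes. Of the 8 members 0 were called in either direction, against 0.0353% of all tested genes called, all lower. The 3 members just named had an unadjusted edgeR p under 0.05 and no overlap, where 305 of all 19809 genes had such a p. DESeq2 called 1 member, GH3.1, and 25 of all genes. The median log2 change of the members was -0.60, beside 0.00 for all tested genes.

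GH3.1 had 0.402, 0.917 and 0.754 TPM with PEO-IAA, against 0.885, 2.75 and 2.69 TPM with mock. Mock replicate 1 lay just below the highest PEO-IAA library in TPM and just above it in CPM, whereas the other mock libraries were well above. The log2 change was -1.61 (SE 0.34, edgeR adjusted p = 0.237). Without mock replicate 1 it was -1.96 with an edgeR adjusted p of 0.0107, and DESeq2 gave an adjusted p of 0.00492 with all libraries.

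GH3.2 had 0.0653, 1.72 and 1.37 TPM with PEO-IAA, against the mock values given above, and every PEO-IAA library was below every mock library. The log2 change was -2.84 (SE 0.88, edgeR adjusted p = 1). GH3.5 had 2.59, 4.44 and 3.16 TPM with PEO-IAA, also below all mock libraries, with a log2 change of -0.73 (SE 0.27, edgeR adjusted p = 1). For GH3.3, GH3.6, GH3.17, DAO1 and DAO2 the PEO-IAA and mock libraries overlapped. Among these, the same-numbered ratios were all below 1 for GH3.3 (0.465, 0.642 and 0.437) and GH3.6 (0.628, 0.861 and 0.62), and neither was called with the block (edgeR adjusted p = 0.991 for both). DAO1, at 6.21, 9.50 and 9.65 TPM with PEO-IAA, had a log2 change of -0.11 with an interval of -0.73 to 0.50. The 12 touch and wound genes summed to 705, 513 and 419 TPM with PEO-IAA and to 286, 507 and 360 TPM with mock.

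IAA set directly against PEO-IAA, at 10 nM and 10 µM and so not at matched doses, gave the widest contrast among the chemical treatments. GH3.1, GH3.2, GH3.3 and GH3.5 were called higher with IAA, 4 of 8 members, against 0.5% of all tested genes called higher and 0.131% called lower. GH3.1 was 17.5-fold higher (log2 4.13, SE 0.36, edgeR adjusted p = 5.81e-06). GH3.2 was 50.0-fold higher (log2 5.64, SE 0.96, edgeR adjusted p = 0.0062).

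GH3.3 was 23.9-fold higher (log2 4.58, SE 0.94, edgeR adjusted p = 0.0247), with 0.117, 1.53 and 0.323 TPM under PEO-IAA. GH3.5 was 4.95-fold higher (log2 2.31, SE 0.27, edgeR adjusted p = 1.64e-04). The calls for GH3.1 and GH3.5 held whichever of the 6 libraries was left out. That for GH3.2 was lost without PEO-IAA replicate 3 (adjusted p = 0.0512), and that for GH3.3 without PEO-IAA replicate 1, IAA replicate 2 or PEO-IAA replicate 3 (adjusted p = 0.134, 0.188 and 0.192). GH3.3 also missed the threshold when the chemical experiment was fitted alone (adjusted p = 0.188).

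GH3.6 was above PEO-IAA in every IAA library, with PEO-IAA at 2.30, 7.76 and 4.49 TPM, and was not called (log2 1.68, SE 0.54, edgeR adjusted p = 0.344). GH3.17 and DAO1 had log2 differences of 0.15 (interval -0.52 to 0.83) and 0.18 (interval -0.43 to 0.79). This comparison shares its IAA and PEO-IAA libraries with the comparisons against mock and is not a separate measurement. Among the 12 touch and wound genes, 1 was called higher with IAA, the calmodulin-like gene TCH3 (log2 2.63, edgeR adjusted p = 0.033).

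**Figure D3:**
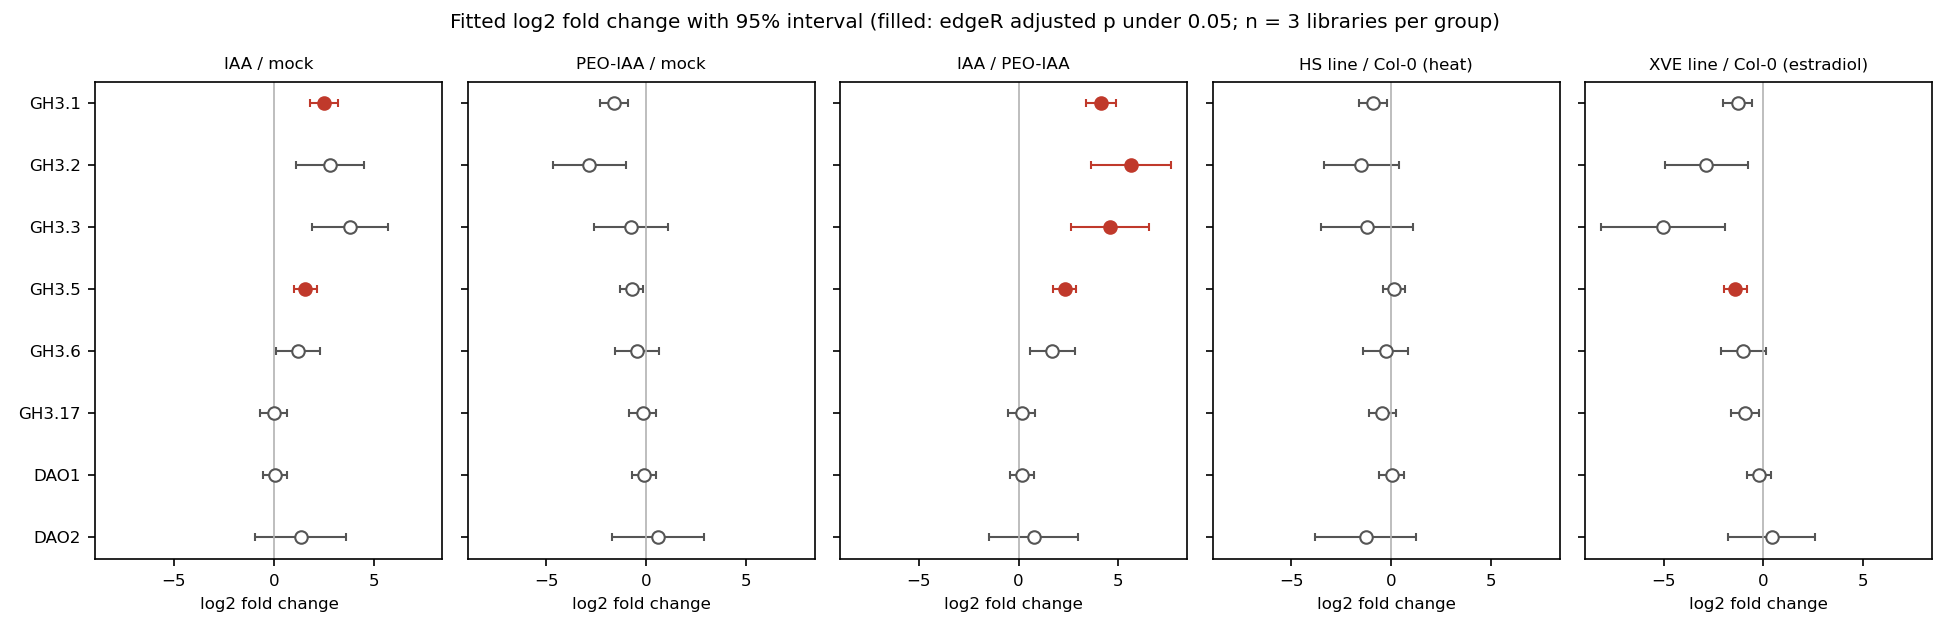
Fitted log2 fold change of each tested member with its 95% interval in 5 comparisons, the first-named group over the second, filled where the edgeR adjusted p over all genes was under 0.05. GH3.1, GH3.2, GH3.3, GH3.5 and GH3.6 lie right of 0 with IAA. In the XVE line the intervals of GH3.1, GH3.2, GH3.3, GH3.5 and GH3.17 lie left of 0, with GH3.5 filled. That of GH3.6 crosses 0 there. GH3.17 with IAA and DAO1 throughout lie near 0.

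The estradiol experiment showed the opposite direction. In XVE:AXR3-1-RFP root tips GH3.5 fell relative to estradiol-treated Col-0, and GH3.1, GH3.2 and GH3.3 lay below Col-0 in every library. Of the 8 members 1 was called lower and 0 higher, against 1.34% of all tested genes called lower and 1.46% called higher. With the replicate block, 5 members were called lower, in a fit that called 1489 of all tested genes in either direction. An unadjusted edgeR p under 0.05 was found for 5 members, all lower, and for 2035 of all 19809 tested genes. The median log2 change of the members was -1.14, beside -0.01 for all tested genes.

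GH3.5 had 1.78, 1.86 and 2.86 TPM in XVE:AXR3-1-RFP, against 4.27, 7.53 and 5.96 TPM in Col-0. All 3 line libraries were below all 3 Col-0 libraries. It was 2.64-fold lower (log2 -1.40, SE 0.27, edgeR adjusted p = 0.00682), and without line replicate 1 the adjusted p was 0.0518.

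GH3.1 had 0.510, 0.394 and 0.673 TPM in the line, against 0.910, 1.57 and 1.48 TPM in Col-0. The groups did not overlap, and the log2 change of -1.28 (SE 0.35) had an edgeR adjusted p of 0.0583, or 0.0111 with the replicate block, and DESeq2 gave 0.0162. Without Col-0 replicate 1 the adjusted p was 0.047.

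For GH3.2 the line had 0.227, 0.109 and 0.659 TPM and Col-0 1.02, 3.27 and 3.33 TPM. Every line library was lower, with same-numbered ratios of 0.22, 0.0356 and 0.2. The log2 change was -2.86 (SE 0.99, edgeR adjusted p = 0.187, and 0.0227 with the block).

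GH3.3 was close to absent in the line, at 0, 0.0465 and 0 TPM, against 0.442, 0.692 and 0.759 TPM in Col-0. These levels rested on 2 estimated reads in the line and 86 in Col-0. The ratio, scaled to library size, was 0.0258, with an exact 95% interval of 0.00308 to 0.0961 that covers counting error only. In the fit the edgeR adjusted p was 0.0873, or 7.81e-04 with the block. It was 0.0236 with the estradiol experiment fitted alone, and DESeq2 gave 0.00781.

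GH3.17 had 4.21, 5.72 and 12.6 TPM in the line, against 11, 17.4 and 16.7 TPM in Col-0. Line replicate 3 stood above the other line libraries and within the Col-0 range. The log2 change was -0.91 (SE 0.33, edgeR adjusted p = 0.21), with the block -1.03 (edgeR adjusted p = 0.0188), and without line replicate 3 it was -1.51 (edgeR adjusted p = 0.00894). GH3.6 had 1.92, 3.54 and 4.83 TPM in the line and 3.94, 8.79 and 8.60 TPM in Col-0. Its same-numbered ratios were 0.476, 0.431 and 0.573, the groups overlapped, and it was not called (log2 -1.003, SE 0.54, edgeR adjusted p = 0.629).

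DAO1 did not pass the test, with 7.24, 6.49 and 10.6 TPM in the line and 9.35, 7.91 and 11.4 TPM in Col-0, and a log2 change of -0.22 with an interval of -0.83 to 0.40. DAO2 had 1.32, 1.77 and 6.63 TPM in the line and 0.769, 0.730 and 6.12 TPM in Col-0. Replicate 3 was high in both genotypes, and the log2 change was 0.41 with an interval of -1.77 to 2.59. The 12 touch and wound genes summed to 259, 243 and 252 TPM in the line and to 146, 126 and 151 TPM in Col-0, with 12 of 12 above 0 (median log2 change 1.07) and 1 called, WRKY33. The 8 root tip markers summed to 113, 152 and 122 TPM in the line and to 157, 197 and 164 TPM in Col-0, without overlap, with 3 of 8 above 0, a median log2 change of -0.07 and 0 called. The epidermal gene WER had the lowest change among them (log2 -0.82, SE 0.32, edgeR adjusted p = 0.287). The part of either list in the lower GH3 levels was not tested.

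**Figure D4:**
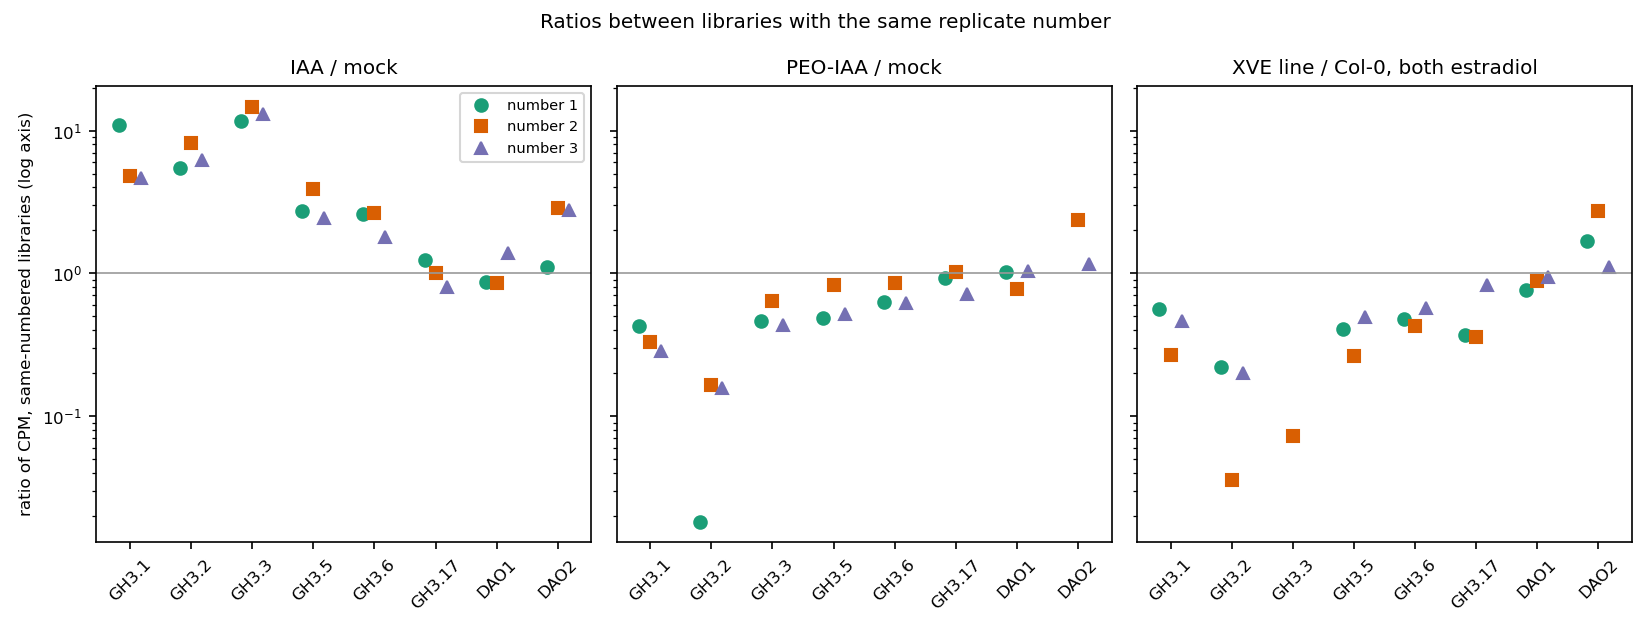
Ratio of CPM between libraries of the same replicate number, on a log axis, for 3 comparisons. Ratios at 0, GH3.3 in the XVE line for numbers 1 and 3 and DAO2 with PEO-IAA for number 1, cannot be drawn. The ratios of GH3.3 with IAA span only 11.7 to 14.7 although its IAA libraries span 3.08 to 34.6 TPM.

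In heated HS:AXR3-1 root tips no member passed the test. Of the 8 members 0 were called, against 0.0252% of all tested genes called in either direction, all higher. Of the members 1, GH3.1, had an unadjusted edgeR p under 0.05, where 838 of all tested genes had one, and DESeq2 called 0 members. The members' median log2 change was -0.66, beside 0.02 for all tested genes. Without the library labelled HS:AXR3-1 replicate 1, again 0 members were called. Over the fits that left out 1 of the 6 libraries, 0 to 20 of all tested genes were called, so few genes of any kind passed.

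GH3.1 had 0.822, 0.852 and 0.901 TPM in HS:AXR3-1, against 1.40, 1.53 and 1.81 TPM in heated Col-0. All line libraries, that of doubtful label included, were below all Col-0 libraries. The log2 change was -0.89 (SE 0.33, edgeR adjusted p = 0.994), and -0.87 (SE 0.38) without replicate 1 of the line.

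GH3.2 had 2.05, 0.203 and 0.0844 TPM in the line, against 2.64, 1.48 and 2.79 TPM in Col-0. The library labelled HS:AXR3-1 replicate 1 stood within the Col-0 range, and the other line libraries lay below it. With all libraries the log2 change was -1.48 (SE 0.89, edgeR adjusted p = 1), and without that library it was -4.00 (SE 1.08, edgeR adjusted p = 0.27).

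GH3.3 showed the same split at lower levels, with 0.253, 0.0972 and 0.0677 TPM in the line and 0.239, 0.205 and 0.581 TPM in Col-0. These levels rested on few estimated reads, 12, 4 and 3 in the line and 10, 11 and 21 in Col-0. The log2 change of GH3.3 was -1.20 (SE 1.09), and -2.01 (SE 1.39) without replicate 1 of the line. GH3.5, the member called lower in the estradiol experiment, had 5.96, 5.99 and 3.28 TPM in HS:AXR3-1 and 3.55, 5.17 and 4.91 TPM in Col-0. These groups overlapped, and the log2 change was 0.15 (interval -0.40 to 0.71), or -0.02 without replicate 1 of the line.

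GH3.6 had 5.25, 4.64 and 1.65 TPM in the line and 1.94, 5.90 and 6.12 TPM in Col-0, with a log2 change of -0.27 (SE 0.54), or -0.63 without replicate 1 of the line. GH3.17 had 22.1, 19.8 and 15.4 TPM in the line and 23.8, 21.2 and 33.5 TPM in Col-0. Its log2 change was -0.44 (interval -1.12 to 0.24), or -0.56 without replicate 1 of the line, and the groups overlapped in TPM but not in CPM. DAO1 had 7.16, 6.96 and 6.62 TPM in the line and 5.50, 6.63 and 8.57 TPM in Col-0, with a log2 change of 0.04 (interval -0.58 to 0.66), or -0.07 without replicate 1 of the line. DAO2 was at most 0.556 TPM in the line and at most 2.05 TPM in Col-0 (log2 change -1.28, interval -3.78 to 1.23, or -1.49 without replicate 1 of the line).

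How far the lines differ in effect was tested as a contrast, HS:AXR3-1 over heated Col-0 minus XVE:AXR3-1-RFP over estradiol-treated Col-0. The inducers, times and AXR3 levels differ between these experiments. Of the 8 members 0 were called, against 0.0252% of all tested genes, with 1 member and 710 genes at an unadjusted edgeR p under 0.05. That member was GH3.5, with a difference of 1.55 on the log2 scale (SE 0.38, edgeR adjusted p = 0.285) and a DESeq2 adjusted p of 0.0354. It was 1.80 (edgeR adjusted p = 0.0414) without HS:AXR3-1 replicate 3, and 1.38 (edgeR adjusted p = 0.837) without HS:AXR3-1 replicate 1. For GH3.2 the difference was 1.38 (SE 1.34) with all libraries and -1.14 without HS:AXR3-1 replicate 1, so no direction can be given for it.

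Across the 7 groups the members differed in the range of their group means. On the log2 scale of CPM, with a prior count of 2, that range was 7.39 for GH3.3, 7.14 for GH3.2, 4.43 for GH3.1, 2.89 for GH3.5, 2.58 for DAO2, 2.07 for GH3.6, 1.91 for GH3.17 and 0.52 for DAO1. The prior count sets the low end for GH3.3, which had 2 reads in the lowest group, so its range is not exact. GH3.1 was highest with IAA (12.5 ± 1.19 TPM), and the IAA libraries did not overlap those of the next group, mock (2.11 ± 1.06 TPM, SD, n = 3 each). Mock, heated Col-0 (1.58 ± 0.206 TPM) and estradiol-treated Col-0 (1.32 ± 0.357 TPM) overlapped their neighbours in that order. HS:AXR3-1 (0.858 ± 0.0401 TPM), PEO-IAA (0.691 ± 0.264 TPM) and XVE:AXR3-1-RFP (0.526 ± 0.141 TPM) followed. HS:AXR3-1 did not overlap estradiol-treated Col-0 above it, and PEO-IAA overlapped both HS:AXR3-1 and XVE:AXR3-1-RFP, which did not overlap each other.

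GH3.2 and GH3.3 were also highest with IAA, and over all libraries lowest in XVE:AXR3-1-RFP. For GH3.2 the lowest place depends on the library labelled HS:AXR3-1 replicate 1, since the other HS:AXR3-1 libraries had 0.203 and 0.0844 TPM, against 0.227, 0.109 and 0.659 TPM in XVE:AXR3-1-RFP. With all libraries of GH3.2 the groups below IAA, in falling order mock, estradiol-treated Col-0, heated Col-0, PEO-IAA, HS:AXR3-1 and XVE:AXR3-1-RFP, each overlapped the next. For GH3.5 only the step below IAA, to estradiol-treated Col-0 (5.92 ± 1.63 TPM, SD, n = 3), was free of overlap, and XVE:AXR3-1-RFP (2.17 ± 0.604 TPM, SD, n = 3) was again the lowest. GH3.17 ran from 26.2 ± 6.49 TPM in heated Col-0 to 7.51 ± 4.47 TPM in XVE:AXR3-1-RFP (SD, n = 3 each), and DAO1 from 9.56 TPM in estradiol-treated Col-0 to 6.90 TPM in heated Col-0. Every neighbouring pair in the order of GH3.17 and of DAO1 overlapped. The experiments were separate, so levels set across them are descriptions.

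The spread between replicates differed as widely. The biological coefficient of variation fitted over all libraries was 96.1% for DAO2, 86.2% for GH3.2 and 82.2% for GH3.3, against a median of 16.9% over all 19809 tested genes. It was 48.2% for GH3.6 and between 22.5% and 29.3% for GH3.5, DAO1, GH3.1 and GH3.17. These values include the library labelled HS:AXR3-1 replicate 1. In edgeR's fit of all libraries without a block, GH3.2 and GH3.3 were called for IAA against PEO-IAA and in no other comparison, whereas DESeq2 also called GH3.3 for IAA against mock and in XVE:AXR3-1-RFP.

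GH3.4 had 0 estimated reads in all 21 libraries, among 434 M reads, which allows up to 0.00691 CPM. Of the stretches of 31 bases in its transcript 7.65% also occur in GH3.2, so reads from those stretches could be assigned to either, while the rest of the transcript is its own. GH3.9 had 0 to 14 estimated reads per library and group means of 0.0382 to 0.137 TPM. The largest contrast was 7 reads in HS:AXR3-1 against 20 in heated Col-0, a ratio of 0.345 with a counting interval of 0.123 to 0.848. That interval leaves out the spread between libraries. The reads were 0, 3 and 4 in the line, replicate 1 of doubtful label first, and 14, 0 and 6 in Col-0, so the groups overlapped. Sharing was lower among the other members: 7.38% for GH3.2, 1.25% for GH3.3, 0.516% for GH3.5, 0.524% for GH3.6, 0.262% for DAO1, 0.299% for DAO2, and 0% for GH3.1 and GH3.17. DAO1 and DAO2 lie on the same strand of chromosome 1 with 634 bases between them.

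The genes whose pattern over the 7 group means was nearest to each of the 4 widest-ranging members were found by the root mean square difference of centred log2 CPM, among 15187 genes. Nearest to GH3.3 were GH3.2 (0.81), the ethylene synthesis gene ACS11 (0.84) and PBP1 (0.91). Nearest to GH3.2 were IAA1, an AUX/IAA repressor gene (0.80), GH3.3 (0.81) and PBP1 (1.08). For GH3.1 they were AT5G62280 (0.39), AT5G66580 (0.45) and IAA19, also an AUX/IAA gene (0.46), and for GH3.5 the AUX/IAA gene IAA11 (0.22), AT1G60010 (0.24) and AT5G57340 (0.25). The likeness is measured on 7 points that share libraries.

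Another 15 genes of auxin conjugation and related chemistry were examined, of which 11 were tested: other GH3 genes (DFL2, JAR1), hydrolases that release IAA from conjugates (ILR1, IAR3 and ILL genes), glucosyltransferases (UGT74D1, UGT74E2) and the IAA methyltransferase IAMT1. None of the 11 was called in 5 of the 6 comparisons, and their median log2 change lay between -0.09 and 0.07 in all 6. The exception was JAR1, which joins jasmonate to isoleucine. It rose to 70.2, 67.4 and 71.4 TPM in XVE:AXR3-1-RFP, against 51.5, 52.4 and 54.8 TPM in estradiol-treated Col-0 (log2 change 0.41, SE 0.088, edgeR adjusted p = 0.0137).

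JAR1 also had the smallest p of the 11 in 3 comparisons without a call. Its log2 change was 0.32 in HS:AXR3-1 against heated Col-0 (edgeR adjusted p = 0.588), 0.25 with PEO-IAA against mock (edgeR adjusted p = 1) and -0.29 with IAA against PEO-IAA (edgeR adjusted p = 0.262). With IAA against mock the smallest p was that of IAMT1 (log2 change -0.26, edgeR adjusted p = 1), and in the difference between the lines that of IAR3 (-0.26, edgeR adjusted p = 1).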

How the data were processed

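Root tip RNA was sequenced in 21 libraries, and groups and replicate numbers came from the labels. The deposited files, 1 per library, hold for 48268 transcripts an expected count and a TPM value, per the file headers. They were made with Salmon 1.3.0 and the TAIR10 build, per the submitters' processing notes. The library layout is, like the strand option, not given in the sources used here. Without a stated strand option, reads of overlapping genes cannot be told apart.

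For each locus the deposited expected counts were added up and then rounded, a shift of at most 2.29e-05% in a library's total. Deposited TPM values were summed per locus and used for levels. edgeR 4.0.16 in R 4.3.3 fitted all libraries with 1 coefficient per group (14 residual degrees of freedom), TMM scaling and its default low-count filter. Intervals of log2 changes are 95%. Counting intervals and limits, the latter set at 3 counts, cover counting error only. Alternatives were RLE scaling, no filter, a replicate block, each experiment alone, DESeq2 1.42.0, and leaving out each library. The fit was tested on simulated data. No library was a duplicate of another of its group.

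Numbers paired the libraries in the chemical and estradiol experiments: over all genes, same-numbered libraries deviated from their group means with correlations of 0.523 to 0.784 and 0.488 to 0.698. Promoters came from TAIR10.1, where the lengths of all 13 member transcripts, and of 99.6% of the 48070 transcripts compared, equal those deposited. Named were all 10 members, each of 15 pathway genes called in a comparison (otherwise that with the smallest p), AXR3, and the 3 genes nearest in pattern with a mean of at least 5 CPM (prior count 2). DAO1 and DAO2 names are those of the member list. Members and lists were chosen with earlier results of these data known.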

Additional observations from a re-analysis of the deposited data

How the results depend on the processing

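RLE scaling and no low-count filter left the number of members called the same in all 6 comparisons. With the replicate block, 4 members were called for IAA against mock and 5 for XVE:AXR3-1-RFP, against 2 and 1 without it. With each experiment alone the numbers were 1 for IAA against mock and 2 for XVE:AXR3-1-RFP. DESeq2 called 3 for IAA against mock, 1 with PEO-IAA against mock, 3 in XVE:AXR3-1-RFP and 1 for the difference between the lines, where edgeR called 2, 0, 1 and 0. Leaving out 1 library gave 1 in each case for IAA against mock, 0 to 1 for PEO-IAA against mock, 2 to 4 for IAA against PEO-IAA, 0 to 2 for XVE:AXR3-1-RFP, 0 to 1 for the difference between the lines and 0 in each case for HS:AXR3-1. The causes were not tested, except that fewer libraries enter the fits that leave some out.

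Over all genes, 33 were called for IAA against mock, 7 for PEO-IAA against mock, 125 for IAA against PEO-IAA, 5 for HS:AXR3-1, 556 for XVE:AXR3-1-RFP and 5 for the difference between the lines. In the same order the replicate block gave 133, 11, 341, 86, 1489 and 51, and DESeq2 gave 115, 25, 238, 40, 870 and 56. Each experiment alone gave 11 for IAA against mock and 0 for HS:AXR3-1 and for the difference between the lines, and no filter gave 2 for HS:AXR3-1. Leaving out 1 library gave 6 to 16, 3 to 6, 50 to 104, 0 to 20, 268 to 528 and 0 to 36.

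In the heat experiment same-numbered libraries had correlations of 0.087, 0.447 and 0.275 for numbers 1, 2 and 3. For numbers 2 and 3 these lay above the best correlation with another number (-0.024 and 0.18). For number 1, which holds the library labelled HS:AXR3-1 replicate 1, another number gave a higher value (0.23). The block called 0 members in the heat experiment. Beyond the members named with a blocked value in the results, the block changed no member's call. With 0 to 14 reads per library, GH3.9 has only wide counting intervals at this depth.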

Other observations

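GH3.17 and DAO2 have more than 1 annotated transcript. The longer GH3.17 transcript, of 2327 bases, made up 57% of the gene's TPM with IAA, 67.4% with PEO-IAA and 58% with mock, 43.8% in HS:AXR3-1 and 46.8% in heated Col-0, and 41.8% in XVE:AXR3-1-RFP and 33.4% in estradiol-treated Col-0. Single libraries of a group differed widely, for example 12.2%, 48.7% and 48.6% in XVE:AXR3-1-RFP and 14.1%, 47.2% and 31.8% in estradiol-treated Col-0, with replicate 1 lowest in both. Of the 3 DAO2 transcripts, that of 1312 bases carried all DAO2 TPM with PEO-IAA, in heated Col-0 and in XVE:AXR3-1-RFP. Its share was 88.8% with IAA, 35.2% with mock, 47% in HS:AXR3-1 and 64.7% in estradiol-treated Col-0. Single libraries differed here too, with 0%, 0% and 100% under mock. These shares are Salmon's division of reads among overlapping transcripts and were not tested.

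DAO2 was higher in replicate 3 than in the other replicates of the estradiol experiment in both genotypes, at 6.63 TPM in XVE:AXR3-1-RFP and 6.12 TPM in Col-0, whereas in the other libraries of that experiment it was between 0.730 and 1.77 TPM.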
